A study of Mus musculus with 23 samples.

Results

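Chromatin opens and closes near genes when microglia, the resident macrophages of the brain, meet a bacterial signal. The intervals described here are stretches of open chromatin within 1 kb of an end of a protein-coding gene whose openness differed between striatal microglia taken after lipopolysaccharide (LPS, a bacterial cell wall component) and after saline. They were chosen by measured values. In each library the best 33900 peaks by the authors' −log10 p on chromosomes 1 to 19 and X were kept, overlapping peaks of all libraries were merged, and an interval was called open in a library if one of these peaks overlapped it. An interval entered when the share of open LPS libraries and the share of open saline libraries differed by at least 50 percentage points. Of 71472 merged intervals, 15666 lay at gene ends and 351 of these met the rule, with 181 gained after LPS (1.16% of gene-end intervals) and 170 lost (1.09%). Because the rule used LPS against saline, that difference is described below and not tested.

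ATAC-seq, which reads out chromatin that a transposase can reach, was run on striatal microglia of male mice, 8 to 10 weeks old, sorted as live, CD11b+, CD45-low and P2RY12+ cells. The mice were control offspring (CON) or offspring with maternal immune activation in their history (MIA). They were examined 18 hours after saline (SAL) or LPS was given intraperitoneally, the latter at 4500 endotoxin units per gram. The 4 groups held 5 CON_SAL, 6 MIA_SAL, 7 CON_LPS and 5 MIA_LPS libraries, so there were 12 LPS and 11 saline libraries, made from 10560 to 25000 sorted cells each. The sources used here state neither the strain, nor the agent given to the dams, nor whether each library is a separate animal. The title of the series speaks of blunted microglial reactivity after prenatal immune stress, a question that the comparison of MIA with CON addresses. The middle number of the sample identifiers took 14 values, 8 of them shared by several libraries. Of these values, 5 occurred with both treatments and 0 with both CON and MIA, so each belongs to 1 offspring group. Its meaning is not stated, so libraries that share it may not be independent, and the p-values reflect the spread among libraries, which may be technical. Coordinates are on mm10 (GRCm38). As a check of the cell label, 14 to 16 of 18 homeostatic microglia genes had an open gene end in each library. Fewer markers of other cells did, with 2 to 8 of 14 for neurons and 0 to 3 of 10 for astrocytes. The counts were 1 to 2 of 10 for oligodendrocytes and 2 to 4 of 10 each for endothelial cells and lymphocytes. Some of these, such as Mbp, Kdr and Ppp1r1b, were open in all 23 libraries.

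As background, macrophage promoters fall broadly into CpG-rich ones, which tend to stay open in most cells, and CpG-poor ones, which are often opened by signals. LPS is sensed through TLR4, whose signalling activates NF-kB and AP-1 and induces interferon, and the transcription factor PU.1 marks the open chromatin of myeloid cells.

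The promoters that members touched ranged from poor to rich in CpG. Below are the 250 bases before the transcription start site, from RefSeq on GRCm38, for the members among the 12 top-ranked gained and 12 top-ranked lost intervals that overlap a promoter window, 6 of each, and for Acod1, a gained member of an LPS response list. This choice was made after the values were seen. Sequences run 5′ to 3′ on the strand of the gene, and capitals mark CpG dinucleotides.
Trem1: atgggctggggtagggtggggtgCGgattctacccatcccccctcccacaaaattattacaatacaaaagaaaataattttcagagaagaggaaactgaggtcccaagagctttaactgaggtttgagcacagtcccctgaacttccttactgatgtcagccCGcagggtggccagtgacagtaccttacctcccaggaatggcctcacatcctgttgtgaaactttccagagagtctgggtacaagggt
Aoah: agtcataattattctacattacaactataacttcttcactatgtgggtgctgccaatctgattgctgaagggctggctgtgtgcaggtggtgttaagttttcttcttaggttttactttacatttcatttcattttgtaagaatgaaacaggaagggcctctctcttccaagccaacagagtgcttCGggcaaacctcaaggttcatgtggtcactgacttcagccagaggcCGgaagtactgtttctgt
Fcrlb: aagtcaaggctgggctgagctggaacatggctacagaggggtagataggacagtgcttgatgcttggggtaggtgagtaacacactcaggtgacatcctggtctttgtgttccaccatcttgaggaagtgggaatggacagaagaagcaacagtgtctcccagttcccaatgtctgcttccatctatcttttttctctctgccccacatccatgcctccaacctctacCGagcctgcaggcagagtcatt
Hal: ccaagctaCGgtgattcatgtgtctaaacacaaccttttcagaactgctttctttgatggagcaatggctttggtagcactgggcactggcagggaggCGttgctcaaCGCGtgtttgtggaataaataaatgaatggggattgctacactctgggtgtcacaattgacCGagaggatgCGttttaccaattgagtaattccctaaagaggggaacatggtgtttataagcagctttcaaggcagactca
LOC115488765: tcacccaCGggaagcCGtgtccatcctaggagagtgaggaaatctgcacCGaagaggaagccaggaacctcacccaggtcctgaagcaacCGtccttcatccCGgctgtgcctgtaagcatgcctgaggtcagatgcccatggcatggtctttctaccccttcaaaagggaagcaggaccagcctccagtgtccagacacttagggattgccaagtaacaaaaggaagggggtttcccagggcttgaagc
Ccr1: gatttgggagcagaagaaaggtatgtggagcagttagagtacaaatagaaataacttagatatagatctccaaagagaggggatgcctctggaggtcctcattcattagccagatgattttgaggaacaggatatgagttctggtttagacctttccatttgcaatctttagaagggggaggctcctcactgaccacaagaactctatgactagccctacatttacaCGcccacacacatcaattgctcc
Acod1: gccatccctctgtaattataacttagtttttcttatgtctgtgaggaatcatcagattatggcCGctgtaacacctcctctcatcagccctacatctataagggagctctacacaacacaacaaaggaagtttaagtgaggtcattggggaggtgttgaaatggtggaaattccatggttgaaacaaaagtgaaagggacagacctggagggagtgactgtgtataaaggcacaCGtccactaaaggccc
Mrap2: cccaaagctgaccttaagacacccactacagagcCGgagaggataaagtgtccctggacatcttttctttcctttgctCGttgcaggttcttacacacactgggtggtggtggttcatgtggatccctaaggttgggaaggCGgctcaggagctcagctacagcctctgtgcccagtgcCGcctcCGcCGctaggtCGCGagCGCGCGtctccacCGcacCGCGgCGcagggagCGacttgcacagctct
Ankrd13b: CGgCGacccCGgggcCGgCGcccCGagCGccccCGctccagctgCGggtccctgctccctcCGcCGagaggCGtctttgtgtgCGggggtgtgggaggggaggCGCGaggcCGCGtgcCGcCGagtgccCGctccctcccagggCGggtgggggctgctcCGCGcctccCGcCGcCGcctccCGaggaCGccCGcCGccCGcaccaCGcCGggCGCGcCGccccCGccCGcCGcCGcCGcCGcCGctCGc
Gpm6b: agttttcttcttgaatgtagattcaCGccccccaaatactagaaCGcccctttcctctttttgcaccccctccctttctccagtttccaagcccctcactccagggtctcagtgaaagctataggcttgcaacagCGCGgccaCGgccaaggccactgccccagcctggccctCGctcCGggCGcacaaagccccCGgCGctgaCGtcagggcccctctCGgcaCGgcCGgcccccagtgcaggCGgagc
Zrsr1: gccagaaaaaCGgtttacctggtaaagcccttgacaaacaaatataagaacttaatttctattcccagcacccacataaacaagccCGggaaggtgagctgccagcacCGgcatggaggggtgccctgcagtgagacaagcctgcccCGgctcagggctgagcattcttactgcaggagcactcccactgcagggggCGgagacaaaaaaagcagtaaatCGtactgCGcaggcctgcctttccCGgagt
Tbx19: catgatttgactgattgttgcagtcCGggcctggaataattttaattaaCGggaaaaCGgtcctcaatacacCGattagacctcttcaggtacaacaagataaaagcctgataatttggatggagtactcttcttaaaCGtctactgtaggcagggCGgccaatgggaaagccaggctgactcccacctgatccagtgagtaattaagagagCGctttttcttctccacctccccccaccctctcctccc
Smim10l2a: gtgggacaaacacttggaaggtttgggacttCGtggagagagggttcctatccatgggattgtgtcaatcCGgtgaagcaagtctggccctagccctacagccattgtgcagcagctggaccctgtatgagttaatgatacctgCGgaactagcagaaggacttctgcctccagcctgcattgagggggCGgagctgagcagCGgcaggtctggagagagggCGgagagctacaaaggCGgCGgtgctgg
The first 7 belong to gained intervals and hold 2, 2, 1, 6, 5, 1 and 2 CpG dinucleotides in 250 bases. The last 6 belong to lost intervals and hold 16, 44, 15, 8, 7 and 8. The interval itself covers all 250 bases at Hal, LOC115488765 and Mrap2, but only 50 at Fcrlb and 23 at Tbx19. At the rest it covers 140 (Zrsr1) to 228 (Ankrd13b), so these counts describe the printed stretch and not the interval. Lost promoters outside the 12 top-ranked can hold fewer, such as Thrsp with 4 and Lrrc70 with 5 in a window of 300 bases, so the separation of these 13 does not hold for all members. The stretches lie at chr17:48232489-48232738 (Trem1, plus strand), chr13:20793863-20794112 (Aoah, plus), chr1:170912942-170913191 (Fcrlb, minus), chr10:93488518-93488767 (Hal, plus), chr17:86950161-86950410 (LOC115488765, plus), chr9:123968693-123968942 (Ccr1, minus), chr14:103046762-103047011 (Acod1, plus), chr9:87144056-87144305 (Mrap2, plus), chr11:77489679-77489928 (Ankrd13b, minus), chrX:166238693-166238942 (Gpm6b, plus), chr11:22971755-22972004 (Zrsr1, plus), chr1:165160774-165161023 (Tbx19, minus) and chrX:56374267-56374516 (Smim10l2a, plus).

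Openness of the gained intervals separated the treatments in every library. The share of the 181 gained intervals that was open ranged from 5.52% to 12.2% in CON_SAL (median 9.94%, n = 5) and from 6.63% to 16.6% in MIA_SAL (median 9.94%, n = 6). After LPS it ranged from 68.5% to 85.6% in CON_LPS (median 79.0%, n = 7) and from 66.9% to 90.1% in MIA_LPS (median 81.8%, n = 5). For the 170 lost intervals the shares were 78.8% to 84.1% in CON_SAL, 70.0% to 89.4% in MIA_SAL, 14.1% to 27.6% in CON_LPS and 8.24% to 21.2% in MIA_LPS. The treatments did not overlap in either set, as the choice of the intervals makes likely, and CON and MIA ranges overlapped within each treatment.

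**Figure D1:**
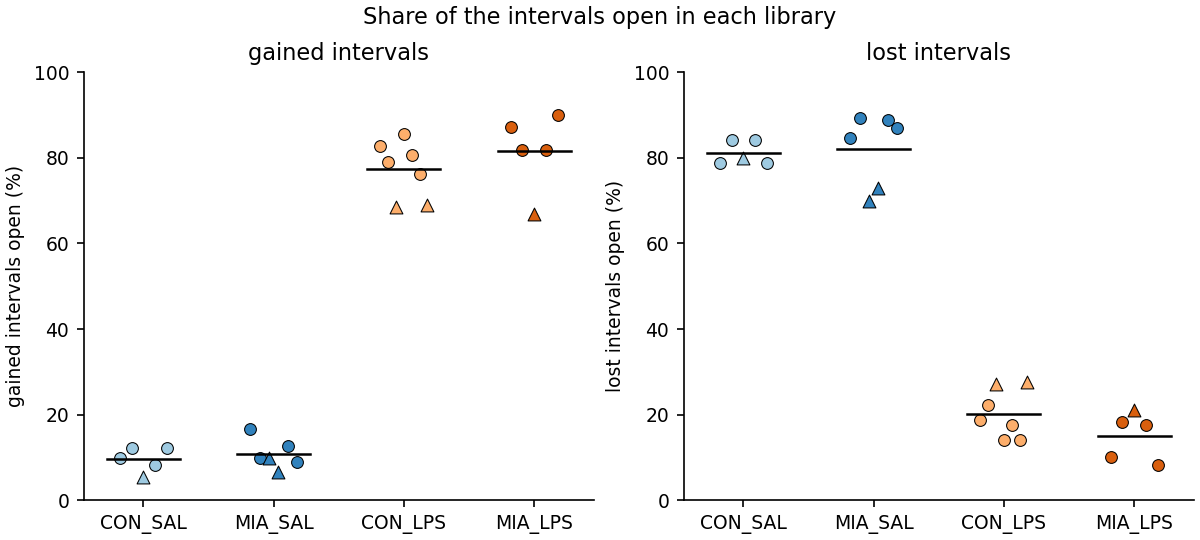
Percentage of the 181 gained (left) and 170 lost (right) intervals open in each library, by group. Points are libraries, lines are group means, and triangles are the 6 libraries with identity numbers 01 to 03, which in LPS libraries have the lowest gained shares (66.9% to 69.1%).

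Most gained intervals were closed at rest, and fewer lost ones were fully closed after LPS. Of the 181 gained intervals, 102 were closed in all 11 saline libraries, 54 were open in all 12 LPS libraries, and 14 were both. Of the 170 lost intervals, 48 were open in all saline libraries, 46 were closed in all LPS libraries, and 2 were both. A change of at least 50 points was seen in CON libraries alone for 145 gained and 118 lost intervals, against 1.5% and 1.62% of gene-end intervals. In MIA libraries alone it was seen for 152 gained and 139 lost intervals, against 1.67% and 2.41%. It was seen in both for 116 gained and 87 lost intervals. With these group sizes the rule allows no change in the opposite direction in either offspring group. Both groups went into the rule, so these counts are a description and no replication. The median difference of the gained intervals was 71.4 points in CON and 66.7 points in MIA, and that of the lost intervals −60.0 and −66.7 points.

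**Figure D2:**
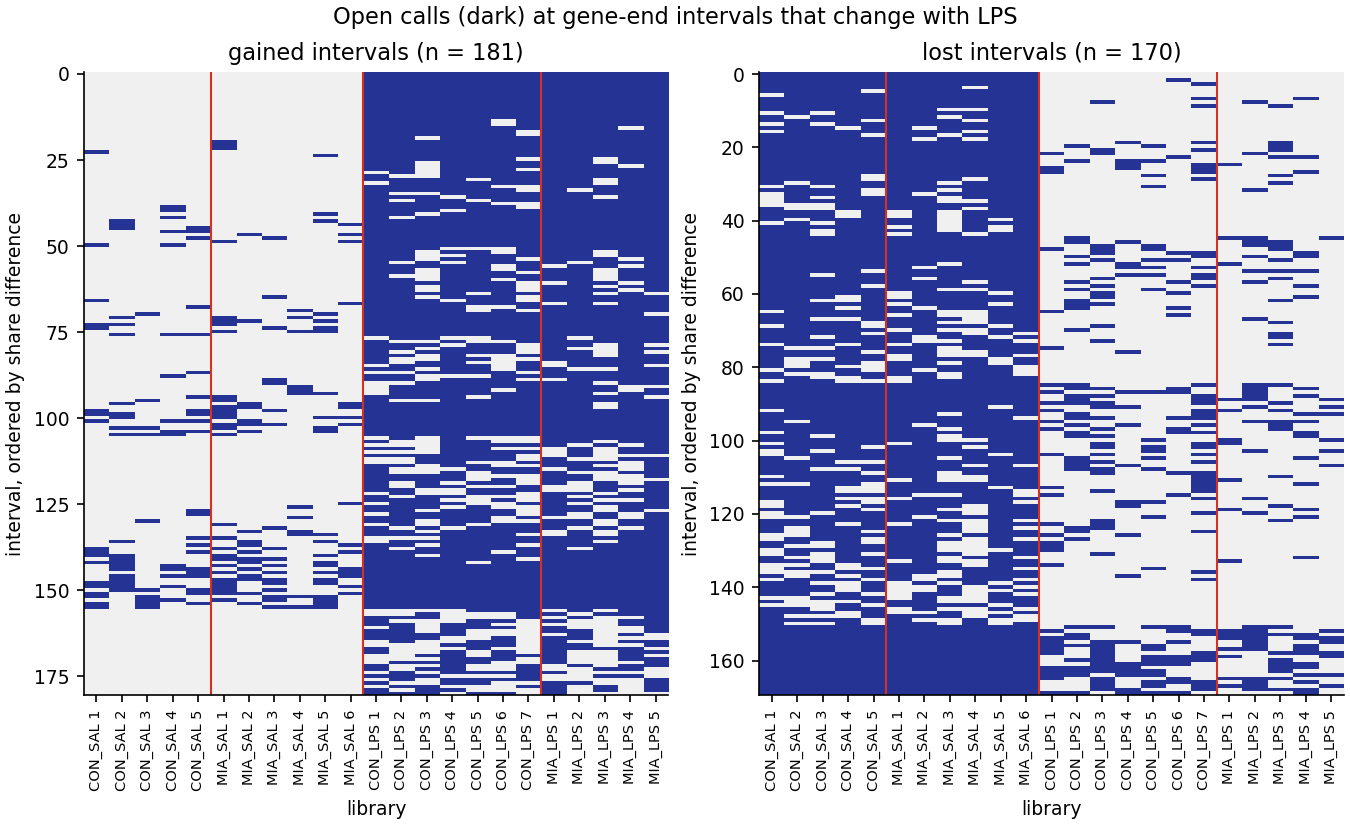
Open calls (dark) of the 181 gained and 170 lost intervals (rows, ordered by the share difference) in 23 libraries (columns, red lines between groups). The upper rows of the gained panel are dark in all LPS libraries and light in all saline libraries, and steps down the panel mark intervals with the same share difference.

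A closed call means that no peak of the library's best 33900 overlapped the interval, and a weaker deposited peak was often there. When all deposited peaks were counted, 66.9% to 100% of the gained intervals had a peak in the LPS libraries and 7.18% to 67.4% in the saline libraries. For lost intervals the shares were 71.2% to 100% after saline and 21.2% to 90% after LPS. The libraries held 33939 to 68298 deposited peaks, and the lowest −log10 p among those kept ran from 3.95 to 23.2. Gained and lost intervals were weak peaks: where open, they stood at a median of 27.3 and 24.0 on a percentile scale of −log10 p within a library (100 being the strongest), against 84.1 for the 8637 gene-end intervals open in every library. With only the best 16000 peaks per library, 24 of the 181 gained and 9 of the 170 lost intervals still met the rule, and with all deposited peaks 119 and 38 did. Where a gene is called open or closed below, the member interval near its end is meant and not the whole gene. For 88 of the 181 gained and 52 of the 170 lost members, the gene with the nearest end had another gene-end interval open in every library.

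The interval at the start of Trem1 (chr17:48232588-48232918), which encodes a receptor that amplifies inflammatory signalling in myeloid cells, was open in 12 of 12 libraries after LPS and 0 of 11 after saline. No saline library had any deposited peak there. The authors' fold enrichment was 6.01, 6.93, 5.96, 5.60, 7.42, 4.01 and 5.83 in CON_LPS replicates 1 to 7 and 5.99, 7.28, 7.29, 5.87 and 11.2 in MIA_LPS replicates 1 to 5. Every LPS library thus had a peak at Trem1 and every saline library lacked one.

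Aoah encodes acyloxyacyl hydrolase, an enzyme that removes fatty acyl chains from LPS and so inactivates it. The interval over its start (chr13:20793933-20794497) was open in 12 of 12 LPS libraries, at a fold of 4.10 to 10.4 (median 6.52), and in 0 of 11 saline libraries. Weak peaks of fold 3.40 to 3.77 were deposited in 3 saline libraries. Hal (chr10:93488361-93489017), for histidine ammonia-lyase, was open in 12 of 12 against 0 of 11, with a fold of 3.95 to 9.23 (median 6.02) after LPS and no deposited saline peak. Ccr1 (chr9:123968505-123968859), a receptor for CC chemokines, was open in 12 of 12 against 0 of 11. Its fold of 4.60 to 13.0 (median 5.68) after LPS overlapped that of the 4 saline libraries with a weaker deposited peak, 4.70 to 5.66. So the gain was present or absent by list at Trem1 and Hal, and rested partly on the peak cutoff at Ccr1.

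The same 12 of 12 against 0 of 11 held at 8 others of the 12 top-ranked gained intervals. Fcrlb, an Fc receptor-like gene, had no deposited saline peak and a fold of 3.39 to 9.34 (median 6.03) after LPS. Stum and Dnajc5, the latter a co-chaperone of synaptic vesicles, also had none. Rab44 and Lasp1, which encode a small GTPase of the Rab family and an actin-binding protein, each had deposited peaks in 4 saline libraries. Cttnbp2nl, LOC115488765 and Eef1akmt1 completed this set, with deposited peaks in 1, 1 and 3 saline libraries. Mmp19, a matrix metalloproteinase, and Fyb, an adaptor of immune receptor signalling, were the other two complete gains, outside the 12 top-ranked by their lower peak percentile.

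**Figure D3:**
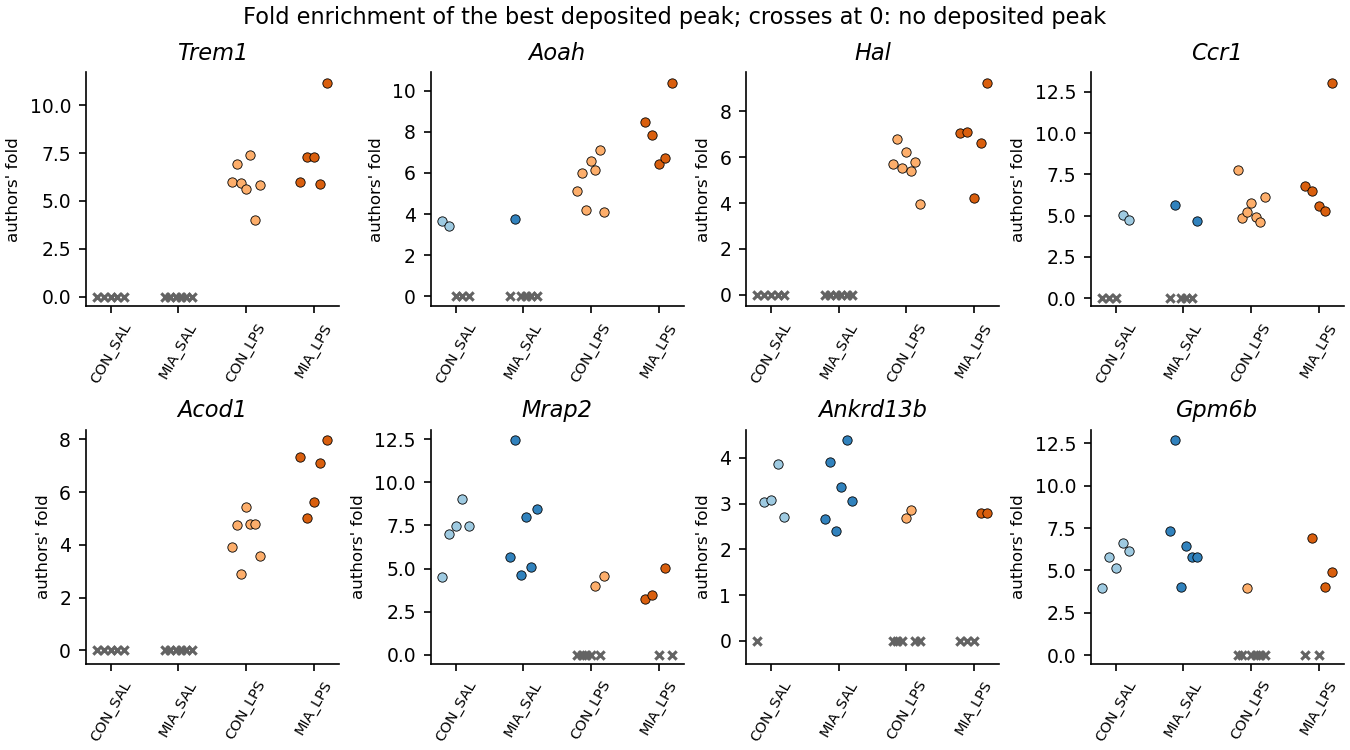
The authors' fold enrichment of the best deposited peak in each library at 8 of the genes whose promoter sequence is shown, by group (points are libraries, crosses at 0 mark libraries with no deposited peak, and vertical scales differ between panels). Trem1, Hal and Acod1 have crosses in all 11 saline libraries, and Mrap2, Ankrd13b and Gpm6b have most crosses in the LPS groups.

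Members at genes of LPS response lists are given by list. Of 13286 protein-coding genes with a gene-end interval, 190 (1.43%) had a gained and 178 (1.34%) a lost one, and 9628 (72.5%) had one open in all 23 libraries. Of 31 NF-kB and acute inflammatory genes with a gene-end interval, 2 had a gained one, 0 a lost one, and 21 one open in every library. Acod1, whose product makes the antimicrobial metabolite itaconate, was open in 10 of 12 libraries after LPS and 0 of 11 after saline, and all 12 LPS libraries had a deposited peak there, at a fold of 2.88 to 7.98 (median 4.91). Lcn2, which encodes the iron-siderophore binding protein lipocalin 2, was at the threshold, with 6 of 12 (3 CON_LPS, 3 MIA_LPS) against 0 of 11. All 25 TLR4 signalling genes with a gene-end interval had one open in all 23 libraries, and none had a gained or a lost one.

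Interferon-stimulated genes had gained intervals at 4 of 22 genes (18.2%) and lost ones at 0. Ifi204, a DNA sensor of the PYHIN family, was open in 11 of 12 LPS libraries (6 CON_LPS, 5 MIA_LPS) and 0 of 11 saline libraries. Its fold was 4.28 to 16.7 after LPS, and 1 saline library had a deposited peak of fold 7.00 that missed that library's cutoff. Ifitm3, an antiviral membrane protein, was open in 9 of 12 against 0 of 11, and Oasl1, an oligoadenylate synthetase-like gene, in 9 of 12 against 1 of 11. Irf7, the transcription factor that amplifies type I interferon, was open in 12 of 12 LPS libraries and already in 5 of 11 saline libraries (3 CON_SAL, 2 MIA_SAL). Its saline and LPS folds overlapped, at 3.01 to 7.34 and 4.70 to 9.32. The Irf7 interval therefore changed least among these 4.

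Complement and phagocytosis genes had gained intervals at 4 of 20 genes and lost ones at 0. C3, the central complement component, was open in 10 of 12 against 0 of 11 (chr17:57227893-57228423, at its start), with a fold of 3.67 to 7.76 in the 11 LPS libraries with a deposited peak. Itgam, the CD11b chain of complement receptor 3 and one of the sorting markers, was open in 10 of 12 against 0 of 11, at an interval 679 bp from its start. Msr1, a scavenger receptor, was open in 11 of 12 against 0 of 11. Cd68, a lysosomal protein of macrophages, was open in 12 of 12 against 2 of 11, at its 3′ end.

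Homeostatic microglia genes had constantly open gene ends at a share near that of all genes. Of 16 with a gene-end interval, 11 had one open in all libraries (68.8%, against 72.5% of all genes). A gained one was at 2 (12.5%, against 1.43%) and a lost one at 0. Both gains lay at 3′ ends: Cx3cr1, the fractalkine receptor, was open in 6 of 12 libraries after LPS (4 CON_LPS, 2 MIA_LPS) and 0 of 11 after saline, 798 bp from its end. Sparc, a matricellular protein, was open in 6 of 12 (5 CON_LPS, 1 MIA_LPS) against 0 of 11. Both were just inside the threshold. Cx3cr1 and Sparc each had an open gene end in all 23 libraries, so these gains concern the named interval and not the whole gene.

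The other lists held at most 1 changed gene each. Among all genes with a gene-end interval, 1.43% had a gained and 1.34% a lost one. Mef2d, 1 of 22 myeloid transcription factors (4.55%), was open in 8 of 12 against 0 of 11. Ier2, 1 of 19 immediate early genes (5.26%), was open in 8 of 12 against 1 of 11. Cd9, a tetraspanin and the only changed gene among 17 of the disease-associated microglia list (5.88%), was lost, at 0 of 12 against 8 of 11. Errfi1, a feedback inhibitor of epidermal growth factor receptor and 1 of 12 glucocorticoid response genes (8.33%), was lost at 0 of 12 against 8 of 11. Antigen presentation (0 of 19), glycolysis and hypoxia (0 of 20), mitochondrial respiration (0 of 19), ribosome and translation (0 of 19) and housekeeping (0 of 11) genes had no gained or lost interval. Lists of this size are too small for counts of 0 or 1 to be told from the shares of all genes.

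Several gained intervals lay at genes typical of other myeloid cells. S100a8, a calcium-binding alarmin abundant in neutrophils and monocytes, was open in 10 of 12 LPS libraries (6 CON_LPS, 4 MIA_LPS) and 0 of 11 saline libraries, with a fold of 3.81 to 8.05 in the 11 LPS libraries that had a deposited peak. On chromosome 8, 4 gained intervals stood between 3658870 and 3665991, 2 nearest Retn (resistin) and 2 nearest Mcemp1, a mast cell and monocyte membrane protein. The Retn intervals were each open in 10 of 12 against 0 of 11, and the Mcemp1 intervals in 8 and 7 of 12 against 0 of 11. Mmp8, neutrophil collagenase, was open in 9 of 12 against 0 of 11 at its 3′ end, and F13a1, coagulation factor XIII A and a marker of border-associated macrophages, in 10 of 12 against 0 of 11. Retn, Mcemp1 and Mmp8 were singled out after their values were seen.

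Few markers of those cell types were open, though by group medians more were open after LPS than after saline. Of those with a gene-end interval, 1 of 4 monocyte and neutrophil markers (25%) and 1 of 5 border-associated macrophage markers (20%) had a gained one. Among all genes the share was 1.43%. Of 14 monocyte and neutrophil markers, each saline library had 1 open (Csf3r) and the LPS libraries 2 to 3 in CON and 1 to 3 in MIA. Beyond S100a8, Camp was open in 3 CON_LPS and 2 MIA_LPS libraries and Cxcr2 in 1 CON_LPS library. The other 10, among them the defining genes Ly6g, Mpo, Elane and Ccr2, were open in 0 of 23 libraries. Of 10 border-associated macrophage markers, 0 to 2 were open in saline libraries and 0 to 4 in LPS libraries. The median was 1 in CON_SAL and MIA_SAL and 3 in CON_LPS and MIA_LPS. Siglec1 was open in 1 CON_SAL, 0 MIA_SAL, 5 CON_LPS and 2 MIA_LPS libraries. In a sorted sample, more cells of a type and more openness per cell cannot be told apart, and the part of these cells in the gains was not tested.

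Further gained intervals, chosen after their values were seen, lay at genes of the extracellular matrix, of proteases and their inhibitors, and of cytokine reception. Plaur, the urokinase receptor, was open in 11 of 12 against 0 of 11. Plau, urokinase itself, was open in 6 of 12 against 0 of 11. Tnfaip6, a hyaluronan-binding protein, was open in 9 of 12 against 0 of 11. Among protease genes, Ctse (cathepsin E) was open in 9 of 12 against 0 of 11 and Lgmn (legumain) in 12 of 12 against 2 of 11. Cstb (cystatin B), a protease inhibitor, was open in 10 of 12 against 3 of 11. Il18rap, a subunit of the interleukin-18 receptor, was open in 9 of 12 against 0 of 11, and Il10ra, of the interleukin-10 receptor, in 10 of 12 against 2 of 11. Cxcr4, a chemokine receptor, was open in 10 of 12 against 1 of 11.

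The most complete losses were at Dusp27 and D7Ertd443e. Dusp27, at whose 3′ end the interval chr1:166098194-166098656 lies, and D7Ertd443e (chr7:134519317-134519993) were open in 0 of 12 libraries after LPS and 11 of 11 after saline. Mrap2, a melanocortin receptor accessory protein, was open in 1 of 12 and 11 of 11, over its start (chr9:87144055-87144605). Its fold was 4.53, 6.99, 7.49, 9.02 and 7.45 in CON_SAL replicates 1 to 5 and 4.61 to 12.4 (median 6.84) in the 6 MIA_SAL libraries. After LPS a peak was deposited in 5 of 12 libraries, at a fold of 3.25 to 5.02. The LPS libraries were low at Mrap2, and their highest fold overlapped the lower saline folds.

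Uba7/Inka1, where Uba7 encodes the activating enzyme of ISG15, was open in 1 of 12 against 11 of 11. Trim67, 4930444P10Rik and Ankrd13b were each open in 0 of 12 against 10 of 11, and deposited LPS peaks remained in 2, 7 and 4 libraries. Smap1, Gpm6b (a membrane glycoprotein of neurons and glia) and Zrsr1 were each open in 2 of 12 against 11 of 11. Tbx19 and Smim10l2a were each open in 0 of 12 against 9 of 11. At each of these 12 top-ranked lost intervals, at least 1 LPS library still had a deposited peak below its cutoff.

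A number of lost intervals, picked after their values were seen, lay at genes for developmental transcription factors. Foxb2 was open in 0 of 12 libraries after LPS and 9 of 11 after saline, Hoxa7 in 0 of 12 and 7 of 11, Foxe3 in 2 and 9, Foxd1 and Eomes in 3 and 9 each, and Neurog3 in 6 and 11. Deposited peaks remained after LPS in 3 libraries at Foxb2 and at Hoxa7, 8 at Foxe3, at Eomes and at Neurog3, and 9 at Foxd1. Dlx2, also a developmental transcription factor, went the other way, with a gained interval open in 12 of 12 against 5 of 11. The share of such factors among all gene ends was not computed. Markers of neurons were open for 4 to 8 of 14 genes in the saline libraries and 2 to 7 in the LPS libraries. The part of neuronal chromatin in the losses was not tested. Rhob, a small GTPase, had no deposited peak in any LPS library at an interval 953 bp from its 3′ end and one in all 11 saline libraries, of which 9 passed the cutoff.

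At the threshold itself, the gained intervals just inside were Tank, an adaptor of TRAF signalling, and Capza2, an actin-capping subunit, each open in 6 of 12 against 0 of 11. Just outside were Apex2/Pfkfb1 and Sys1, each open in 7 of 12 against 1 of 11 (49.2 points). The lost intervals just inside were Thrsp and Lrrc70, each open in 6 of 12 against 11 of 11, and just outside were Bnip3l and Adam22, each open in 5 of 12 against 10 of 11 (−49.2 points).

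A larger share of gained and lost intervals than of other gene-end intervals lay at 3′ ends of genes. Where the strand of the gene was known, 38.9% of 144 gained and 36.3% of 135 lost intervals were near a 3′ end only, against 12.8% of 12356 other gene-end intervals and 3.86% of the 7171 among these that were open in every library. Near a 5′ end only were 56.3%, 61.5%, 81.5% and 89.8%. Put the other way, 3.32% of intervals at 3′ ends were gained and 2.91% lost, against 0.792% and 0.811% of those at 5′ ends. By the rule no member can be open in every library, so part of these contrasts is between changing and constant intervals. Of the 12356 other intervals 1581 were near a 3′ end only, and 277 of those belonged to the 7171 open in every library. Of the members whose nearest end is a 3′ end, 34 of 57 gained and 30 of 49 lost belonged to a gene whose start was open in every library. Cd68, Cx3cr1 and Tgfb1 among the gained and Dusp27, Cd9 and Errfi1 among the lost are members near a 3′ end.

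**Figure D4:**
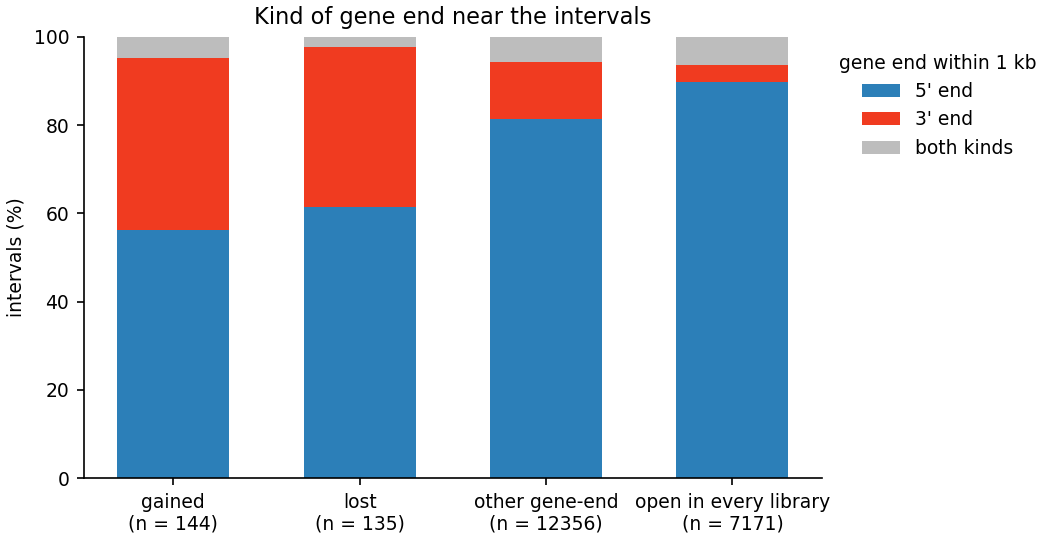
Percentage of intervals with only 5′, only 3′ or both kinds of gene end within 1 kb, for gained, lost, other gene-end intervals and those open in every library, among intervals with a gene of known strand. The 3′ share is 38.9% and 36.3% in gained and lost intervals and 3.86% in those open in every library.

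Both sets were also narrower than the constant gene ends. The median width was 393 bp in gained and 490 bp in lost intervals, against 695 bp in other gene-end intervals and 935 bp in those open in every library. The end of a gene lay inside 28.2% of gained and 41.2% of lost intervals, and inside 9298 of the 15315 other gene-end intervals (60.7%). Among these others are the 8637 open in every library, where it lay inside 7543 (87.3%). By the rule no member can be open in every library, so part of these contrasts is between variable and constant intervals. In rank, members resembled changed intervals away from gene ends, which had median percentiles of 29.3 (gained) and 27.0 (lost). The median widths of those were 404 bp (gained) and 371 bp (lost), so gained members were alike in width and lost members were wider. Changes were more frequent away from gene ends, where 2630 of 55806 intervals were gained (4.71%) and 1448 lost (2.59%).

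Gained gene ends often had a gained partner nearby, a count that uses the same LPS contrast as the rule. A gained interval away from gene ends lay within 50 kb of 82 of 181 gained members (45.3%), 33 of 170 lost members (19.4%) and 20.3% of the 15315 other gene-end intervals. A lost one lay within 50 kb of 13.8%, 14.1% and 10.4%. Among the members, 10 pairs stood within 10 kb of each other, 8 gained with gained, 0 lost with lost and 2 mixed. The pairs of opposite direction, and Psen2, were singled out after their values were seen. Tgfb1, which encodes a cytokine that maintains microglial identity, was gained 562 bp from its 3′ end (12 of 12 against 1 of 11). At 3744 bp from it, the interval near the 3′ end of Ccdc97 was lost (0 of 12 against 8 of 11). Gtf2a1, a subunit of the general factor TFIIA, had a lost (6 of 12 against 11 of 11) and a gained interval (7 of 12 against 0 of 11) 1279 bp apart. Psen2, a catalytic subunit of gamma-secretase, had a gained interval at its 5′ end (6 of 12 against 0 of 11) and a lost one near its 3′ end (0 of 12 against 6 of 11).

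Most promoters that gained intervals touched were poor in CpG, as the sequences of Trem1, Ccr1 and Acod1 show, and those of lost intervals were spread from poor to rich. Promoter windows ran from 250 bases before to 50 after the start site, and 32 gained (17.7%) and 60 lost intervals (35.3%) overlapped one. Of the 15315 other gene-end intervals, 8309 (54.3%) overlapped one. Among these 8309 were 6535 of the 8637 intervals open in every library (75.7%). The ratio of observed to expected CpG had a median of 0.245 in the gained windows (quartiles 0.152 to 0.388), 0.551 in the lost windows (0.336 to 0.782) and 0.817 in the windows of intervals open in every library (0.684 to 0.940). Over all 21045 windows the median was 0.574. A ratio of at least 0.6 was found in 5 of 32 gained windows (15.6%), 27 of 60 lost windows (45.0%) and 84.9% of those open in every library. It was found in 6504 of the 8309 windows of other gene-end intervals (78.3%), and in 48.1% of all windows. Of these 6504, 5546 belonged to intervals open in every library. The 5 gained exceptions were Slc41a2, Cxcr4, Tnfaip6, Trnp1 and Chac1. Median GC content was 50.7% in gained, 59.7% in lost and 62.3% in constantly open windows. The rule used no sequence, but it leaves no member open in every library. Peak rank and width also differ between these sets, and their part in the composition was not tested.

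**Figure D5:**
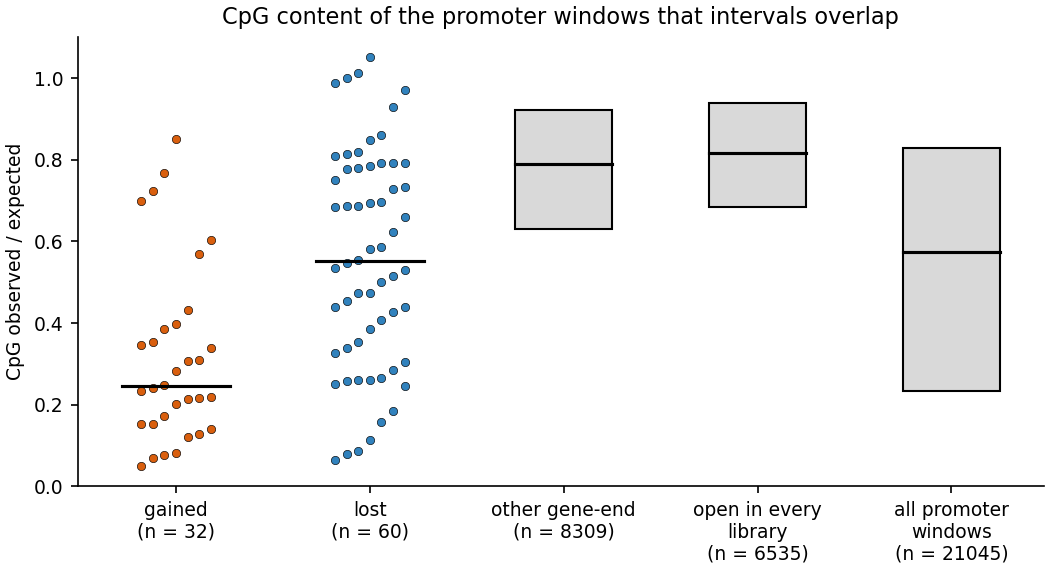
Ratio of observed to expected CpG in promoter windows overlapped by gained (32) and lost (60) intervals (points, line at the median), beside the quartile range (box) and median (line) of other gene-end intervals, of those open in every library and of all windows. Most gained windows lie below 0.6, and the lost windows spread from near 0 to above 1.

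Short motifs were searched on both strands of these windows. The AP-1 letters TGANTCA were found in 6 of 32 gained windows (18.8%: Fcrlb, Tnfaip6, Klra2, Mcemp1, Bcl2a1a and Hal), in 1 of 60 lost windows (1.67%), in 3.90% of constantly open windows and in 7.04% of all windows. The PU.1 letters GAGGAAG were found in 10 gained windows (31.3%), among them S100a8, Lcn2, F13a1 and Il18rap, and in 8 lost windows (13.3%), against 13.3% of all. C/EBP letters TTGCNNAA were found in 5 gained (15.6%) and 1 lost window (1.67%), against 10.3% of all. TATAAA was found in 8 gained (25.0%) and 6 lost windows (10.0%), against 12.7% of all. In Acod1 it stood from 28 to 23 bases before the start.

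The other motifs searched differed less, or in the opposite direction, between gained and lost windows. GAAANNGAAA, the interferon response element, was in 3 gained (9.38%, Ifi207, Aoah and Gpr18) and 2 lost windows (3.33%), against 3.38% of all. The NF-kB motif was in 2 gained (6.25%) and 3 lost windows (5.00%), against 4.86%, and the STAT letters TTCNNNGAA in 3 (9.38%) and 5 (8.33%), against 7.76%. The GC box GGGCGG was in 8 gained (25.0%) and 31 lost windows (51.7%), against 73.3% of constantly open and 46.7% of all windows. The cyclic AMP response element TGACGTCA was in 0 gained and 4 lost windows (6.67%, among them Gpm6b and Sstr2), against 2.26% of all. TGACGTCA does not contain TGANTCA, other motifs may share bases, and a match describes the letters only.

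No member was called between MIA and CON offspring by the exact tests. This comparison is independent of the rule, which fixed only how many libraries of each treatment were open. After saline, 25 members could be tested by Fisher's exact test (two-sided, adjusted by Benjamini-Hochberg over all 3897 intervals tested), and 0 were called, as among all intervals (0% called). An unadjusted p under 0.05 was reached by 0 members, against 0.770% of all intervals tested. After LPS, 69 members were tested among 5343 intervals (0% called), 0 were called, and 1 had an unadjusted p under 0.05, against 2.79% of all tested. Over both treatments, with an exact test stratified by treatment, 160 members were tested among 13483 intervals (0% called) and 0 were called. Of these 160, 3 had an unadjusted p under 0.05, against 2.59% of all tested. For the difference between the LPS effects in MIA and CON, the open totals of the members did not allow a p of 0.01, so 0 members were tested.

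The limma test on within-library ranks of −log10 p, run on the same intervals, called 0 members after saline (0% of all), 1 after LPS (0.487% of all) and 0 over both treatments (0.00742% of all). Run on the 44473 intervals open in at least 3 libraries, it called 0 of 351 members for the difference between LPS effects (0% of all). An unadjusted p under 0.05 was reached by 29 of the 351 members and by 2068 of the 44473 intervals.

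The 1 member called by limma after LPS was Klra2, a Ly49-family receptor gene (chr6:131247241-131247496, 220 bp from its 5′ end). It was open in 5 of 5 MIA_LPS and 2 of 7 CON_LPS libraries and in 0 of 11 saline libraries (exact p = 0.0278, adjusted 0.987; limma adjusted p = 0.0324). Deposited folds were 9.10, 8.91, 4.95, 5.52 and 12.6 in MIA_LPS, and 4.49, 5.83, 6.04 and 3.14 in the 4 CON_LPS libraries with a deposited peak. The deposited folds of the groups overlap. With the replicate number as a block, limma gave no call after LPS (smallest adjusted p = 0.144 among members). Replicate numbers do not pair libraries, so this block does not decide about the call.

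Among the members whose open totals allowed a p of 0.01, the others with the smallest p did not pass. Arhgef17 was open in 1 of 5 MIA_LPS and 6 of 7 CON_LPS libraries (exact p = 0.0720, adjusted 0.987). Neurog3, a lost member, was open in 4 of 5 MIA_LPS and 2 of 7 CON_LPS libraries (exact p = 0.242). After saline, Gm550 was open in 5 of 6 MIA_SAL and 1 of 5 CON_SAL libraries (exact p = 0.0801), and Slit1/Lcor and Hmcn2 each in 4 of 6 and 1 of 5 (exact p = 0.242). Over both treatments, Olfml2a was open in 5 of 11 MIA and 9 of 12 CON libraries (exact p = 0.0432), and Fgf1 in 3 of 11 and 7 of 12 (exact p = 0.0478), with an adjusted p of 1 for both.

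A member open in none or in all libraries of a treatment cannot differ between MIA and CON there. After saline, 42 gained members were open in a larger share of MIA than CON libraries, 37 in a smaller share and 102 in the same, and of the lost members 72, 50 and 48 were so. After LPS, 81 gained members were open in a larger share of MIA than CON libraries, 46 in a smaller share and 54 in the same. Of the lost members 45, 79 and 46 were so. The mean differences after LPS were 4.12 points for gained and −5.19 points for lost members. These counts are a description with no test, since members share libraries.

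Results resting on the 6 libraries with identity numbers 01 to 03 were recomputed without them. Among LPS libraries, their gained share was 66.9% to 69.1% against 76.2% to 90.1% in the other 9, and their lost share 21.2% to 27.6% against 8.24% to 22.4%, so the lost shares overlap. Without them, 222 gained and 322 lost gene-end intervals met the rule, with 163 and 159 of the members shared.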

How the data were processed

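The submitters' processing notes name Bowtie2, SAMtools, Picard, cutadapt, MACS2 and DiffBind and the builds mm10 and GRCm38, without versions or settings. Each library has 1 headerless peak list, deposited by the authors. The authors' fold enrichment, a ratio, was deposited as written by their peak caller for each peak. The −log10 p and −log10 q of each peak were likewise deposited by the authors as their caller wrote them. Column meanings were read from the values. Read totals per library are unknown, so no counting interval is given. Every list was shortened to 33900 peaks to put libraries of 33939 to 68298 deposited peaks on one length. Gene positions (21631 protein-coding genes) and promoter windows came from RefSeq on GRCm38.p6, with strand for 17274 genes. No genome sequence was used here, so intervals outside promoter windows were not read.

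The members and the 21 gene lists (373 entries) were chosen with earlier results of these data known. Named members were, per direction, the 12 with the largest share difference, all at list genes, the 3 with the smallest p in each test, and 2 on each side of the threshold. MIA and CON were compared by exact tests on open libraries, two-sided, where the totals allowed p of 0.01 or less, adjusted by Benjamini-Hochberg, with calls at 0.05. The exact tests were run on simulated data with independent libraries and near-complete differences. That run does not show whether they could call the partial differences possible among members. limma 3.58.1 in R 4.3.3 on ranks was an alternative; other steps used Python 3.11.15. Replicate numbers do not pair libraries: of 31 same-numbered pairs of libraries from different groups, 8 had deviations from their group means correlated above 0.1. The median correlation was 0.0102 in these 31 pairs and −0.0032 in the 166 other pairs from different groups.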

Additional observations from a re-analysis of the deposited data

Results flagged for a closer look

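One library stood apart from its group by Dixon's gap test, among 24 combinations of group and measure checked; chance flags about 1 in 20. MIA_LPS replicate 3 had a deposited peak, of any strength, at 66.9% of the gained intervals, against 95.6% to 100% in the other 4 MIA_LPS libraries. It also had the shortest deposited list, 33939 peaks. Its share among the shortened lists was 66.9% too, since nearly its whole list was used.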

How the results depend on the processing

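The counts of members depended on the peak list and the thresholds. The number of lost intervals was 84 with all deposited peaks and 85 with −log10 q of at least 5 (gained 187 and 156), 378 from MIA libraries alone and 322 without the libraries with identity numbers 01 to 03, an alternative chosen after seeing the data. The number gained was 102 within 500 bp and 350 within 2 kb. With a difference of at least 0.4 there were 288 gained and 322 lost, and with 0.6 there were 106 and 85. Leaving out each library in turn gave 169 to 209 gained and 166 to 224 lost, and 0 to 0 members called in each exact test of MIA against CON, which says nothing about stability, since a call needed many intervals to reach the smallest p together and no member could be tested for the difference between LPS effects. The other settings (16000 peaks, ranking by fold, summit windows, peaks covering at least 0.5 of the interval, CON libraries) moved neither count by more than 1.5 times, although few members were shared with 16000 peaks. Of the named intervals, Olfml2a changed direction, to 8.33 points with 16000 peaks. For MIA against CON after LPS, limma without a block called 1 member (Klra2) and, over every interval open in at least 3 libraries, also added after seeing the data, 1 member (a Retn interval, adjusted p = 0.0381). With the replicate block, whose numbers do not pair libraries, it called 0 members in each test. The cause of these differences was not tested. Libraries without read totals set a limit that cannot be stated in reads, and with 5 to 7 libraries per group the smallest Fisher p is 0.00216 after saline and 0.00126 after LPS. These values count every library as independent, which libraries sharing a middle number may not be.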
